A study of Mus musculus with 26 samples.

Results

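In mouse liver, 145 stretches of 10 kb held 4 or more recurrent binding sites of the transcription factors C/EBPalpha and C/EBPbeta. They are called dense bins here, out of 19843 bins with at least 1 recurrent site. The members were chosen from measured binding. Region centres from 16 C/EBP lists, 489556 regions in all, were pooled, and centres at most 100 bp apart were chained into 113957 sites. The 24763 sites found in 8 or more lists are called recurrent. Each chromosome was divided into 10 kb bins from position 0, and bins with 4 or more recurrent sites were kept. The dense bins held 608 recurrent sites, 2.46% of them all. They met 111 of the 20933 genes measured for RNA polymerase II (Pol II), and 93 of these genes had enough signal to be tested.

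All samples were livers of male C57BL6/J mice, 7 weeks old, labelled wild type. Partial hepatectomy removed 3 of 5 lobes, and the removed tissue gave the 0 h sample. The other livers were taken 3, 8, 16, 24, 36, 48 and 168 h after surgery. Chromatin immunoprecipitation with sequencing (ChIP-seq) gave 1 library per time for C/EBPalpha, C/EBPbeta and Pol II, and 1 for Egr1 at 36 h. Per the labels 5 mice were taken per time, and the sources used here do not say whether they were pooled. No time point had replicate libraries and no sham-operated group is labelled, so surgery and regeneration cannot be told apart.

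C/EBPalpha and C/EBPbeta are basic leucine zipper factors that bind the same DNA element as dimers. In hepatocytes C/EBPalpha is known for maintaining metabolic genes and restraining division, and C/EBPbeta for the acute phase response, in which the liver makes defence proteins for the blood. Egr1 is a zinc finger factor made rapidly after growth signals and injury. Pol II over a gene body reflects ongoing transcription. Bulk liver holds several cell types, and a smaller number of cells of a type and less Pol II per cell cannot be told apart.

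The upstream DNA of 5 genes is shown because each had its start in a dense bin, a recurrent site near that start and a course of Pol II described below or a role in the acute phase, complement or sugar and fat metabolism. The sequences are the 250 bases before the start from RefSeq, build GRCm38.p6, read 5′ to 3′ on the gene's strand. Capitals mark the letters TTNCNNAA on either strand, a loose form of the C/EBP element. The binding files use build mm9, so site positions were measured from the gene starts in those files and nothing was converted between builds.
Orm2: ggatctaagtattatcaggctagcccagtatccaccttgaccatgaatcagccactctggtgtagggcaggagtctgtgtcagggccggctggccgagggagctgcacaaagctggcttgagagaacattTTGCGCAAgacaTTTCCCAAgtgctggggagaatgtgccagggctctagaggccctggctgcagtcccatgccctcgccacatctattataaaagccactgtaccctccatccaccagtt
C9: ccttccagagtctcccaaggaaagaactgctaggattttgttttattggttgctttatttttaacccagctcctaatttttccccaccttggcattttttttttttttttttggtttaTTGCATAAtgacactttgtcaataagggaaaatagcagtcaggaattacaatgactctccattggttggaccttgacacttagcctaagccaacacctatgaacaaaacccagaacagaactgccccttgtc
Itih3: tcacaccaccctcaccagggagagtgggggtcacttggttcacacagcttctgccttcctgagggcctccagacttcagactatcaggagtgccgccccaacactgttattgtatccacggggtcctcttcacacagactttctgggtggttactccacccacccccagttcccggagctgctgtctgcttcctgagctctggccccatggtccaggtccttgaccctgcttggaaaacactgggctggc
Khk: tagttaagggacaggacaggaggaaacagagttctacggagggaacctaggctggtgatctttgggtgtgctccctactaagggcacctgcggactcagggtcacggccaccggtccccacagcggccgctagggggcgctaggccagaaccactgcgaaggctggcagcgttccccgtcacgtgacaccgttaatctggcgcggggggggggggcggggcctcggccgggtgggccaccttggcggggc
Thrsp: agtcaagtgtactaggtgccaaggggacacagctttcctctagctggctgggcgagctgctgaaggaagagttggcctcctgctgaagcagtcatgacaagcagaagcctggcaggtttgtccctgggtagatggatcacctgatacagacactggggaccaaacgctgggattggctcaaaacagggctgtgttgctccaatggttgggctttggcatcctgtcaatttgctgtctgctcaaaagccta

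For Orm2, a site present in all 16 lists lay 120 bp before the start in the files. The matches were centred 116 and 104 bp before the RefSeq start, and the first of them is the palindrome TTGCGCAA. The gene's length in the files and in RefSeq differed by 1 bp. For C9, a site in all 16 lists lay 42 bp before the start and the match was centred 128 bp before it, with gene lengths that differed by 347 bp. The sites of Itih3, Khk and Thrsp lay 101, 79 and 101 bp before the start, in 14, 15 and 11 lists. No TTNCNNAA occurs in their 250 bases, which says only that these letters are not in this window. Of 70 genes with the start in a dense bin, 49 had a RefSeq promoter and 39 had exactly 1. A recurrent site lay from 250 bp before to 50 bp past the start in 16 of these 39. TTNCNNAA occurred in 14 of the 39 promoters (35.9%), in 8 of the 16 (50%) and in 36.8% of all 32851 RefSeq promoters of the same length. The stricter TTGCNNAA, contained in the looser form, occurred in 7 of 39 (17.9%), in 3 of 16 (18.8%) and in 9.56% of all. TTGCGCAA occurred in 1 of 39, which is among the 16, and in 0.164% of all. The Egr1 elements GCGTGGGCG and GCGGGGGCG occurred in none of the 39, and in 0.536% and 2.57% of all. Each was searched on both strands.

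Dense bins were strings of separate sites. Of the 145 bins, 122 held 4 sites, 18 held 5 and 5 held 6. The 463 gaps between neighbouring sites had a median of 1602 bp, and from the 5th to the 95th percentile they ran from 615 to 4847 bp. Only 1 gap was under 250 bp. From the first to the last site a bin spanned a median of 6399 bp, with a range of 1886 to 9504 bp. Just outside the threshold lay 705 bins with 3 sites, with a median of 39 list memberships summed over the sites, against 53 in the 122 bins with 4. Chromosome 4 held 16 dense bins, chromosome 8 held 14 and chromosome 7 held 13, while X and Y held 0. At least 1 neighbouring 10 kb bin also held a recurrent site for 76.6% of dense bins, against 42.8% of all bins with a site.

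The sites inside dense bins were compared with other recurrent sites in how often they were listed. A site was in a median of 14 of 16 lists, against 13 for the rest, and 31.7% of them were in every list, against 28.4%. Of the 608 sites, C/EBPalpha lists held from 74.7% at 48 h to 88.5% at 3 h, and C/EBPbeta lists from 78% at 48 h to 90.3% at 8 h. Of the other recurrent sites, the same lists held 66.8% and 88.9% for C/EBPalpha and 71.9% and 94.1% for C/EBPbeta, so the dense-bin sites were listed more often at 48 h and slightly less often at 3 h (C/EBPalpha) and 8 h (C/EBPbeta). The list lengths differed, with 20061 to 31267 regions for C/EBPalpha and 20608 to 54574 for C/EBPbeta. More C/EBPalpha than C/EBPbeta lists held 23% of the sites, against 22% of the other recurrent sites. More C/EBPbeta lists held 27.6%, against 31.8%. In position, 12.8% of the sites lay within 1 kb of a gene start, against 12.4% of the others. Sites in no gene body and over 10 kb from a start made up 30.9%, against 42.2%. These values describe the lists that chose the bins and were not tested.

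The bins with most sites lay at genes of varied function. Arid5b, a DNA-binding partner of a histone demethylase, had 6 sites around its start at chr10:67740001-67750000 (mm9). Acsl1, which joins fatty acids to coenzyme A, had 6 sites at chr8:47570001-47580000, and the bin before it held 4 more. 4930420K17Rik, an older name of Tmem243 in the RefSeq gene table, also had 6 sites at its start. A gene-free bin with 6 sites at chr6:90490001-90500000 lay 842 bp from the start of Aldh1l1, an enzyme of folate metabolism. The gene-free bin with 6 sites at chr6:138020001-138030000 lay 28068 bp from the nearest start, Slc15a5. Bins with 5 sites met Fbxo31, a substrate receptor of a ubiquitin ligase, and Zmiz1, a transcriptional coactivator. Others with 5 met the sulfur-transfer enzymes Mpst and Tst, the complement-activating protease Masp1, and Ntn3 with Tbc1d24. AC142098.2 and BC030396, whose names did not match the RefSeq gene table, also met bins with 5 sites, and 4 of the 5 at AC142098.2 were in all 16 lists. All 4 sites were in all 16 lists at Per2, a repressor of the circadian clock, and at Orm2 with Orm3.

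**Figure D1:**
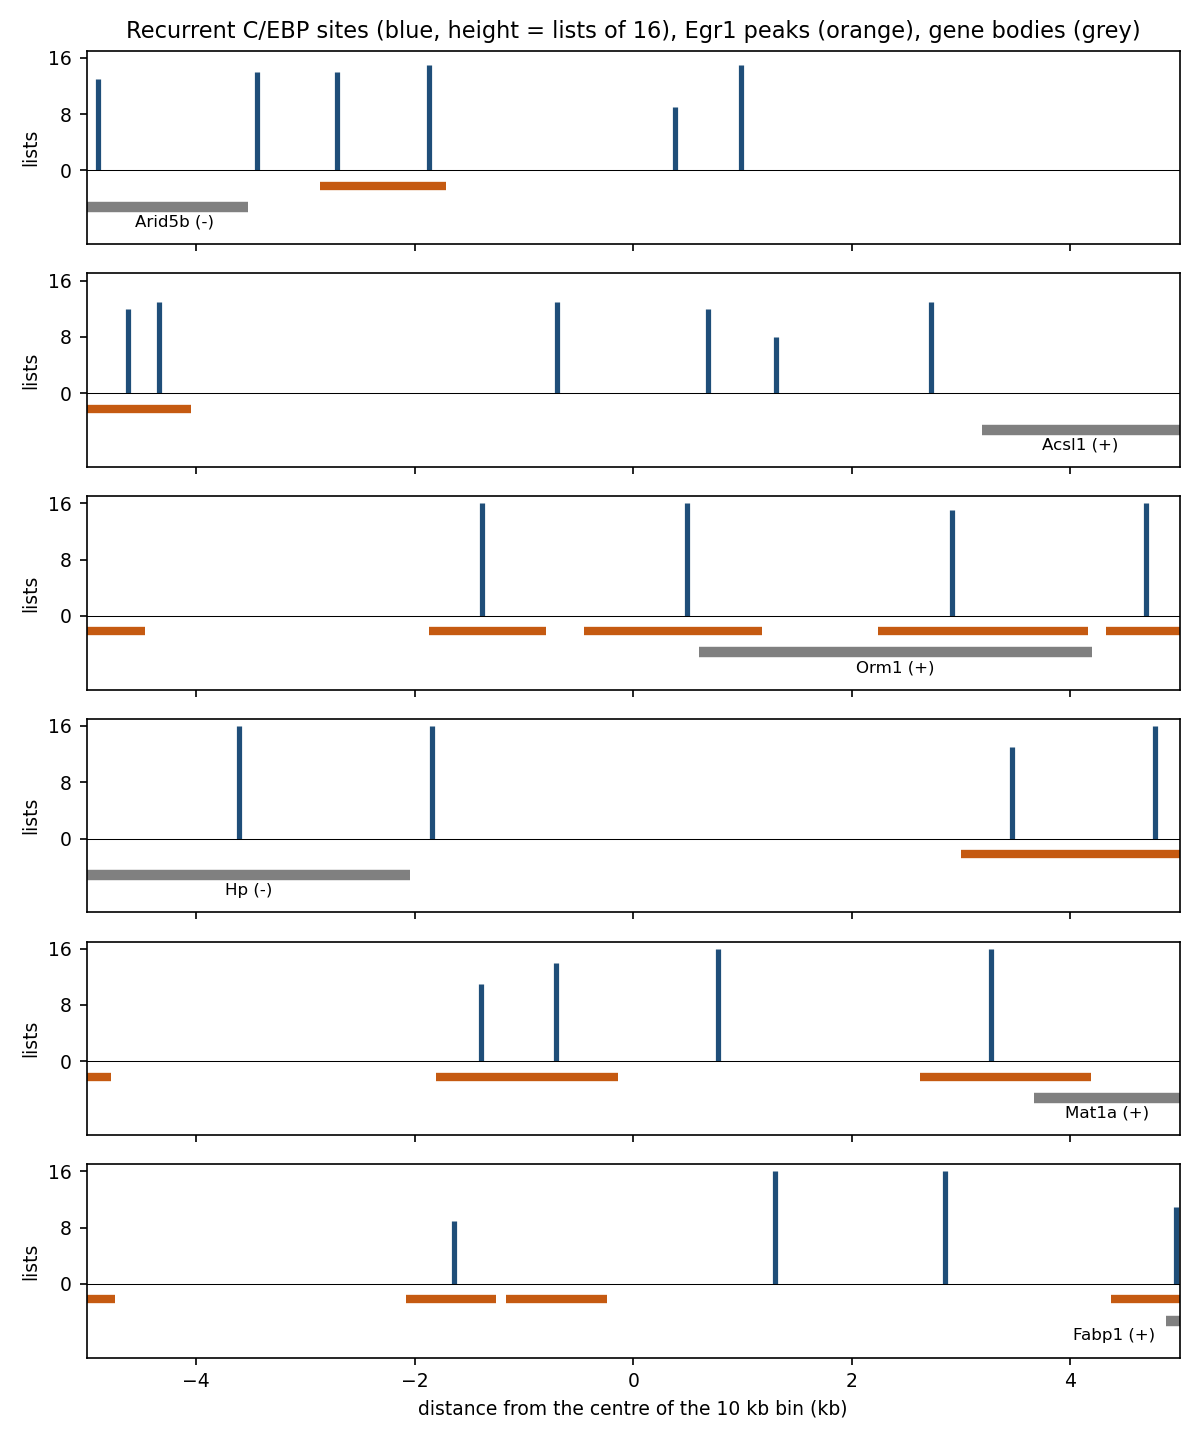
Maps of 6 dense bins, with the distance from the bin's centre in kb on the x axis. Blue lines are recurrent sites, with height as the number of C/EBP lists of 16, orange bars are Egr1 peaks at 36 h and grey bars are gene bodies with strand; sites lie both before and inside the genes, and the Orm1 bin meets 5 Egr1 peaks.

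A dense bin met no measured gene in 52 cases, and the nearest start of a measured gene was then a median of 33791 bp away, from 306 to 330871 bp. The nearest starts included Cxcl1, a neutrophil-attracting chemokine, at 306 bp, and Cebpa, the gene of C/EBPalpha itself, at 5678 bp. Cyp8b1, the sterol 12-alpha-hydroxylase of bile acid synthesis, started 4577 bp from a dense bin, and Apoa5, a regulator of plasma triglycerides, 7161 bp. Trib1, a pseudokinase known for promoting the breakdown of C/EBPalpha, had a dense bin at its start and was also the nearest start to gene-free dense bins 9792 and 129792 bp away. Il1r1, the interleukin 1 receptor, was the nearest start to bins at 33431 and 83431 bp. A nearest start is a distance, and no contact between a bin and a gene was measured.

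Egr1 peaks at 36 h were frequent in the dense bins, and the Egr1 list was not used to choose them. A peak met 83 of 145 dense bins, or 57.2% (95% Wilson interval 49.1 to 65), against 3.64% of all 264118 bins. The share was 21.3% in bins with 1 recurrent site, 36.4% with 2 and 45.7% with 3. Bins with no recurrent site met a peak in 1.93% of cases. The share was thus higher at each further site, although the intervals of the bins with 3 sites (42 to 49.4%) and of the dense bins overlap slightly. The intervals cover counting error only, since all bins share 1 Egr1 library.

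**Figure D2:**
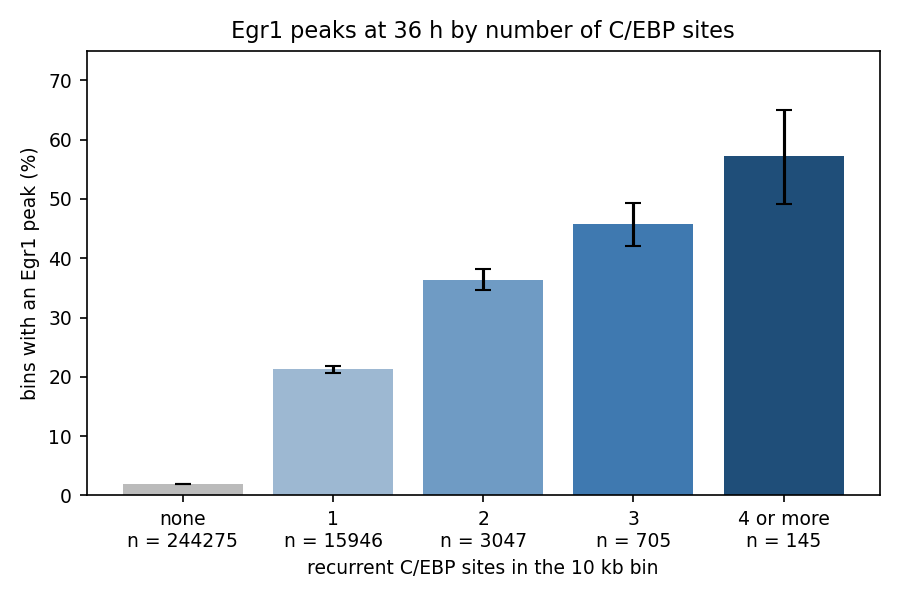
Percent of 10 kb bins that meet an Egr1 peak at 36 h, by the number of recurrent C/EBP sites in the bin, with n below each bar. Error bars are 95% Wilson intervals; the share goes from 1.93% with no site to 57.2% with 4 or more.

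A bin with more sites has more places for a peak to meet, so the same comparison was made per site. An Egr1 peak held 132 of the 608 sites in dense bins, or 21.7% (18.6 to 25.2), against 18.4% (18 to 18.9) of other recurrent sites. Over 1 kb from gene starts the shares were 23.2% and 20%, and the interval of the first, 19.8 to 27%, included the second. Within 1 kb of a start they were 11.5% of 78 sites and 7.4% of 2998. Per site, the difference was therefore small beside the difference per bin. Dense bins without a gene start met a peak in 67.5% of 83 cases, against 26.8% of bins with 1 to 3 sites and no start. For bins with a start the shares were 43.5% of 62 and 16.7%.

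In all, 112 of 9895 Egr1 peaks met a dense bin, and 103 of them held a dense-bin site. Their centres lay a median of 151.5 bp from the nearest such site, and 106 of the 112 peaks were over 1 kb from a gene start. Their median score, as the authors gave it, was 108, beside 103 for all Egr1 peaks. The peak with the highest score, 836.29, at chr17:56339017-56340078, met only the edge of a Dpp9 bin that begins at 56340001, and its centre lay outside that bin, 6448 bp from the nearest dense-bin site. The next, at 641.73, was at chr4:63003133-63004202, 1933 bp from the start of Orm1, and its centre was 50 bp from a recurrent site. Peaks scoring 617.39 in the bin of Sdr42e1 and 531.39 in a bin near Serpina1e, a serine protease inhibitor gene, held 1 and 3 sites. The Orm1 bin met 5 Egr1 peaks and the Fabp1 bin met 4.

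The genes of dense bins carried more Pol II than other genes. Of the 111 genes, 93 (83.8%, 75.8 to 89.5) exceeded 0.5 signal units per bp in at least 2 libraries, the filter for testing. The share was 37.1% of 7931 genes that met bins with 1 to 3 sites and 13.4% of 12891 genes that met none. With the start in the bin the shares were 67 of 70 (95.7%) and 45.6%. The filter can be passed on libraries after surgery alone, so these shares do not describe 0 h. Among tested genes the median level at 0 h was 3.21 signal units per bp in dense bins, 1.03 in bins with 1 to 3 sites and 0.701 for genes that met none. In dense bins that median stayed between 2.72 and 3.37 at all 8 times. The values are the authors' Pol II signal divided by the measured gene width and rescaled between libraries. The 18 genes that missed the filter included the long genes Anks1b, Hivep3, Homer2 and Atxn1, with at most 0.246 units per bp in any library.

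Some facts of the libraries bear on what follows. All comparisons share the single 0 h library. The 3 h Pol II library stood apart, with a signal that summed to below 0 and 50.6% of entries below 0, against 38.4 to 44.3% in the other 7. All 10 hepatocyte markers passed the filter, as did 6 of 14 Kupffer cell and macrophage, 5 of 14 endothelial, 1 of 14 stellate cell, 0 of 8 cholangiocyte and 1 of 11 lymphocyte markers. No marker of these 6 lists met a dense bin. Only 0.53% of all measured genes did, so lists of 8 to 14 genes would seldom hold any.

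No gene of the dense bins had a course over time that passed the test across all 8 libraries. The limma spline test called 1 of 4761 genes (0.021%) at an adjusted p under 0.05, and 0 of 93 in dense bins, where the smallest adjusted p was 0.465, for Car11. At an unadjusted p under 0.05 there were 7 of 93 (7.53%), beside 9.62% of all tested genes. In simulated data this test recovered 6 of 100 genes planted with a log2 change of 2 and 72 of 100 with a change of 4. The test also called 3 genes with no planted change. The noise was each gene's own deviations shuffled over the libraries, so any real change over time was counted as noise. The recovered shares hold only for that noise and for the shape of course that was planted. Recovery of an abrupt peak at 3 h is not given by them. Socs3, with a log2 change of 5.48 at 3 h, had an unadjusted p of 0.119 in the limma spline test. Hp, with a change of 4.33 at 3 h, had 0.328. The changes below are therefore differences between single libraries, without a test, and "higher" or "lower" means a log2 change of at least 1 against 0 h in each library of a window. Changes are on the log2(value + 0.5) scale with values below 0 set to 0, which understates those of low genes.

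In the early window, at 3 and 8 h, 14 of the 93 genes (15.1%) were higher, beside 8.19% of all tested genes, and 10 (10.8%) were lower, beside 8.25%. In the middle window, at 16 and 24 h, 11 were higher (11.8%, beside 8.09%) and 8 lower (8.6%, beside 6.55%). In the late window, at 36 and 48 h, 12 were higher (12.9%, beside 9.85%) and 9 lower (9.68%, beside 7.5%). At 168 h, 17 were higher (18.3%, beside 17.7%) and 12 lower (12.9%, beside 19.3%). Without rescaling between libraries, 11 were higher and 16 lower early (12.1% and 17.6%, beside 6.67% and 13% of all). At 168 h 8 were then higher and 30 lower (8.79% and 33%, beside 6.15% and 35.2%). Rescaling moved log2 changes at 168 h by 0.97 before the floor at 0 and the added 0.5, so values there are relative to the genes that set it. In the rescaled values the excess over the background was greatest for early higher genes, and at 168 h the share of higher genes was near the background. With a pseudocount of 2 the final higher share was 9.68%, beside 2.58% of all, and with no filter on low values 15.9%, beside 8.5%. Highest at 3 h were 31 of the 93 genes (33.3%), against 20.7% of all. With the 8 h library alone 20 genes were higher (21.5%, beside 14.5%) and 14 lower (15.1%, beside 12.8%). The background genes had lower Pol II levels, so these shares are not matched for level. Among tested genes with a mean of 2 or more units per bp over the 8 libraries, 11 of 58 dense-bin genes (19%) were higher early. That compares with 13.5% of all such genes and 15.2% of those that met no bin with a site. Early lower genes made up 10.3%, beside 8.23% and 7.58%, and late higher genes 15.5%, beside 12.8% and 14.9%. The mean includes the libraries after 0 h, so a gene can enter through its own rise. These shares are therefore not matched for the level at 0 h.

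**Figure D3:**
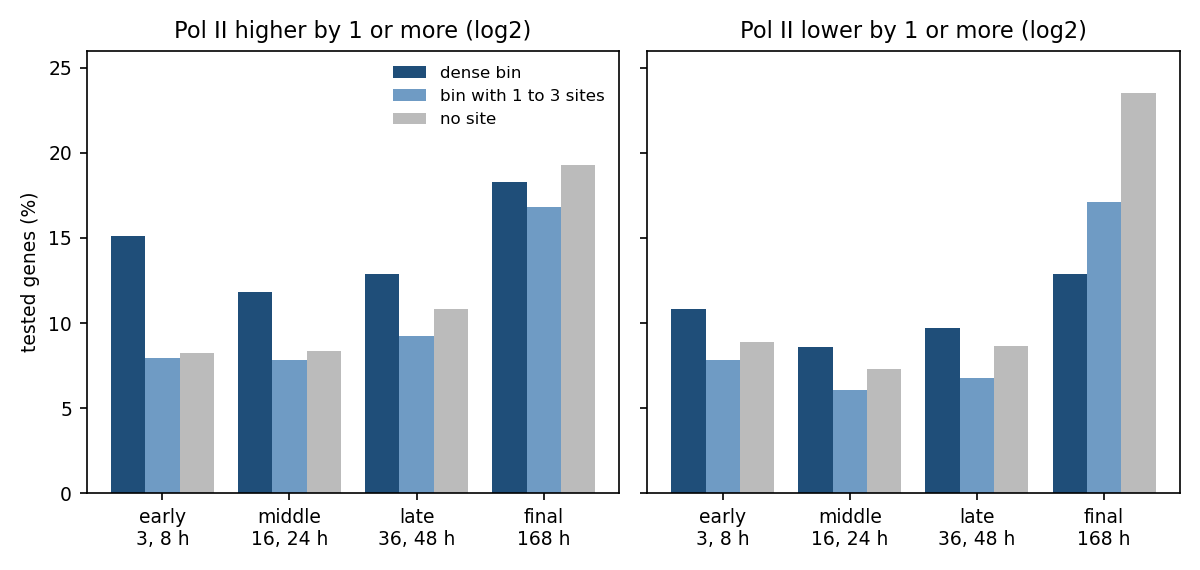
Percent of tested genes with Pol II higher (left) or lower (right) by a log2 change of 1 or more against 0 h in each library of a window, for genes of dense bins (93), of bins with 1 to 3 sites (2944) and of no bin with a site (1724). Early higher genes made up 15.1% in dense bins, and at 168 h lower genes made up 12.9% there; the groups were not matched for Pol II level.

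Acute phase genes headed the early higher group. Of 31 measured genes of an acute phase list, 6 (19.4%) met a dense bin, against 0.53% of all measured genes and 1.95% of all tested genes, and 28 of the 31 were tested. The list was chosen with earlier results of these data known. The 6 were Hp, Itih3, Orm1, Orm2, Orm3 and Socs3, with Orm2 and Orm3 in 1 bin, and 5 of them were higher early. Early rises on this list were not particular to dense bins. Of the list, 21 genes met only bins with 1 to 3 sites and 4 met no bin with a site. Some of these rose as strongly: Lcn2 had -1.26 units per bp at 0 h and 326 at 3 h, and Itih4 5.83 and 268. Fga, which met no bin with a site, had 8.59 and 106. Others did not rise at 3 h, such as Hamp1 with 36.8 and 38.5. Socs3, the feedback inhibitor of cytokine signalling through JAK and STAT, had levels of 2.38, 128, 63.9, 41.2, 24.2, 21.3, 50.9 and 17.9 units per bp at 0, 3, 8, 16, 24, 36, 48 and 168 h. Orm1, an orosomucoid that binds drugs and lipids in plasma, had 2.43, 138, 56.2, 25.4, 13, 19.4, 28.2 and 14.3. Both were far above 0 h in each later library, with the peak at 3 h and a smaller rebound at 48 h. The smaller of the 2 early log2 changes was 4.49 for Socs3 and 4.27 for Orm1. Itih3, a heavy chain of the inter-alpha-trypsin inhibitors that bind hyaluronan, had 1.07, 39, 20.5, 23.9, 14.6, 12.3, 19.3 and 6.95 units per bp. Hp, haptoglobin, which binds free haemoglobin, had 34.1, 694, 226, 165, 92.4, 93, 197 and 52.8. Hp carried more Pol II per bp at 3 h than any other early higher gene. Lrg1, a secreted leucine-rich glycoprotein of inflammation, had 14.9, 485, 76.3, 122, 28.4, 41.8, 75.6 and 6.97, and ended below its 0 h level. Only the end of Lrg1 met its dense bin, and none of the sites of that bin lay in the gene.

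The orosomucoid neighbours did not share 1 course. Orm2 had levels of 0.447, 5.36, 6.23, 2.95, 0.805, 2.14, 5.26 and 6.43 units per bp and Orm3 had 1.25, 1.25, 1.87, 1.15, 0.548, 1.42, 0.277 and 5.18. Orm2 was low at 0 h and 24 h and highest at 168 h, whereas Orm3 stayed within a log2 change of 0.74 to 36 h, was at -1.17 at 48 h and was higher only at 168 h, by 1.70. The 3 genes are related copies, and the placing of any reads shared between them is unknown here. The bin of Orm2 and Orm3 met 1 Egr1 peak, scoring 333.56, while the bins of Socs3, Itih3 and Lrg1 met none. A peak scoring 115.44 met the Hp bin.

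The summed level of the 14 macrophage markers was also higher at 3 h, mainly through 1 gene. It was 4.48 units per bp at 0 h and 10.5 at 3 h, and between 2.61 and 7.92 at the other times. Cd14, a receptor for bacterial lipopolysaccharide that is also on the acute phase list, gave 8.31 of the 3 h sum. At 3 h 11 of the 14 were at or below 0, among them Clec4f, Vsig4 and Emr1. The summed level of the 10 hepatocyte markers was 469 at 0 h, 817 at 3 h and 420 to 591 at the other times. These markers include Fgb, also on the acute phase list, with 10.2 at 0 h and 101 at 3 h. The part of either in the acute phase values was not tested.

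**Figure D4:**
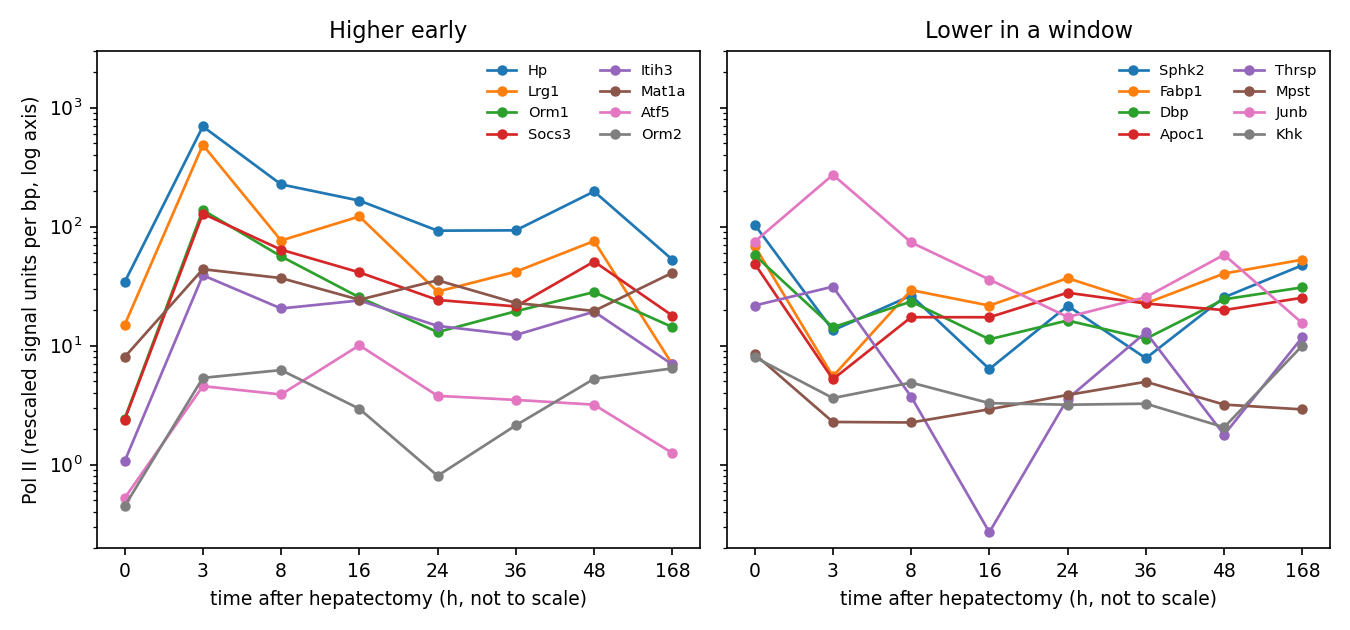
Pol II level in rescaled signal units per bp (log axis) in each of the 8 libraries, for 8 dense-bin genes higher in the early window (left) and 8 lower in at least 1 window (right), 1 library per time. Hp and Lrg1 reach 694 and 485 units at 3 h, while Fabp1 and Apoc1 reach their lowest level there.

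The other early higher genes had varied roles. Mat1a, which makes the methyl donor S-adenosylmethionine in liver, had levels of 8.01, 43.8, 36.9, 24.3, 35.4, 22.8, 19.6 and 40.9 units per bp. It was above 0 h by at least 1.24 on the log2 scale in all 7 later libraries, with its 168 h level close to that at 3 h. Atf5, a leucine zipper factor of the stress response, had 0.522, 4.57, 3.88, 10.1, 3.78, 3.5, 3.19 and 1.25 and was highest at 16 h. Nedd4l, a ubiquitin ligase for membrane proteins, had 0.0697, 1.9, 1.32, 1.51, 1.31, 0.889, 1.43 and 0.801, low throughout. Dpp9, a cytosolic dipeptidyl peptidase whose gene met 2 neighbouring dense bins, had 0.0885, 10.8, 1.49, 5.7, 1.03, 1.16, 1.88 and -0.765. Its 3 and 16 h libraries stood above the rest and its 168 h value was below 0. Slc25a25, a mitochondrial ATP carrier, had 26, 70.8, 57.8, 40.1, 61.5, 37.1, 40.1 and 56.1. The remaining early higher genes were B4galt1, Eno1 and Gltpd2, with smaller early changes of 1.14, 1.51 and 1.09. Socs3, Orm1, Itih3, Mat1a and Nedd4l were the 5 genes of the 93 at a log2 change of 1 or more in each of the 7 later libraries.

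The 10 early lower genes included Fabp1, Apoc1, Dio1, Dbp and Sphk2. Fabp1, the liver fatty acid carrier, had levels of 68.8, 5.52, 29.2, 21.7, 36.9, 22.7, 40.3 and 52.7 units per bp. Apoc1, an apolipoprotein of triglyceride-rich particles, had 48.9, 5.22, 17.3, 17.3, 27.8, 22.6, 19.9 and 25.2. Both were lowest at 3 h and then partly recovered, and at 168 h they were below 0 h by less than the threshold, at -0.38 and -0.94. The fatty acid genes Acsl1 and Dgat2 had log2 changes of -2.10 and -2.22 at 3 h but -0.54 and -0.79 at 8 h, and so were not lower in the window. Dio1, which converts thyroid hormone to its active form, had 4.49, 0.343, 1.83, 2.38, 0.948, 1.33, 0.796 and 4.42 units per bp. It was near its 0 h level at 168 h. The low values at 3 h come from the library that stood apart, and at 8 h alone the log2 changes were -1.22 for Fabp1, -1.47 for Apoc1 and -1.10 for Dio1.

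Dbp, a circadian leucine zipper factor that activates genes by time of day, had 57.6, 14.2, 23.4, 11.3, 16.2, 11.4, 24.5 and 30.9 units per bp. Its neighbour Sphk2, a sphingosine kinase, had 104, 13.4, 26.3, 6.36, 21.6, 7.83, 25.4 and 47.4. Both were highest at 0 h and lowest at 16 and 36 h, and Sphk2 was the only gene of the 93 at -1 or less in each of the 7 later libraries. The ends of the genes face each other, and signal of one cannot be told apart from that of the other near the boundary, since ChIP carries no strand. Car11, a carbonic anhydrase-related protein whose gene meets only the edge of the same bin, had 2.93, 0.75, 1.88, -0.228, -0.655, 0.147, 0.481 and 3.38. It was near 0 from 16 to 36 h and back at its 0 h level at 168 h. Of the other 2 clock genes in dense bins, Per2 had a log2 change of -1.72 at 3 h and -0.77 at 8 h. Nfil3, a repressor that opposes Dbp, had 1.46 at 3 h and -0.02 at 8 h. The clock list had 3 of 15 measured genes in dense bins (20%), beside 0.53% of all measured and 1.95% of all tested genes. The time of day of sampling is unknown here, and its part in these values was not tested.

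Other early lower genes had varied roles. Mpst, which moves sulfur from mercaptopyruvate, had levels of 8.49, 2.28, 2.26, 2.92, 3.85, 4.97, 3.19 and 2.91 units per bp, while Tst in the same bin stayed within a log2 change of 0.74 either way. Cisd1, an iron-sulfur protein of the outer mitochondrial membrane, had 4.7, 0.00715, 1.12, 0.697, 2.31, 1.26, 1.25 and 2.78 and was nearest to 0 at 3 h. Psmb6, a catalytic proteasome subunit, had 1.15 units per bp at 0 h and values below 0 at 5 of the 7 later times, so its change is set by the added 0.5.

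Further genes of metabolism and complement were higher or lower outside the early window. Thrsp, a nuclear protein of lipid synthesis, had levels of 21.7, 31.3, 3.72, 0.271, 3.58, 12.9, 1.78 and 11.8 units per bp. It was higher at 3 h than at 0 h, near 0 at 16 h and low again at 48 h, so that neighbouring times differed widely. Khk, which phosphorylates fructose, had between 2.06 and 4.89 units per bp at 3 to 48 h, against 7.99 at 0 h, and was lower in the middle and late windows but not at 168 h. C9, the pore-forming component of complement, had -0.116, -0.369, 0.634, 0.603, 1.43, 0.946, 1.31 and 0.757. Its first 2 libraries were below 0, and it was higher in the middle and late windows and at 168 h. 4930420K17Rik had -0.0301, 0.0288, 0.819, 0.647, 1.22, 0.931, 0.642 and 1.93, with its highest level at 168 h. Masp1 was higher at 168 h and in no other window, by a log2 change of 1.47. Klhl21, an adaptor of a ubiquitin ligase, was lower in the middle and late windows and at 168 h, with -1.83 at 24 h as its largest change.

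Junb, a subunit of the AP-1 factor, was the single immediate early gene of 26 measured that met a dense bin. Its levels were 74.6, 272, 73.6, 35.9, 17.4, 25.5, 58 and 15.4 units per bp, with 3 h above and all times from 16 h on below 0 h. At 168 h it was among the 12 lower genes, with Fbxo31 at -2.66, 2310076L09Rik (an older name of Plin5, a coat protein of lipid droplets) at -2.10 and Ggt6, of the gamma-glutamyltransferases, at -2.04. The 168 h values of Fbxo31 and Ggt6 were below 0, at -0.295 and -1.69 units per bp. The size of their changes is therefore set by the floor at 0 and the added 0.5. The overlapping genes Ang and Rnase4, both secreted ribonucleases, were higher at 168 h, Ang by 1.96 and Rnase4 by nearly the same, and their signals cannot be told apart.

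**Figure D5:**
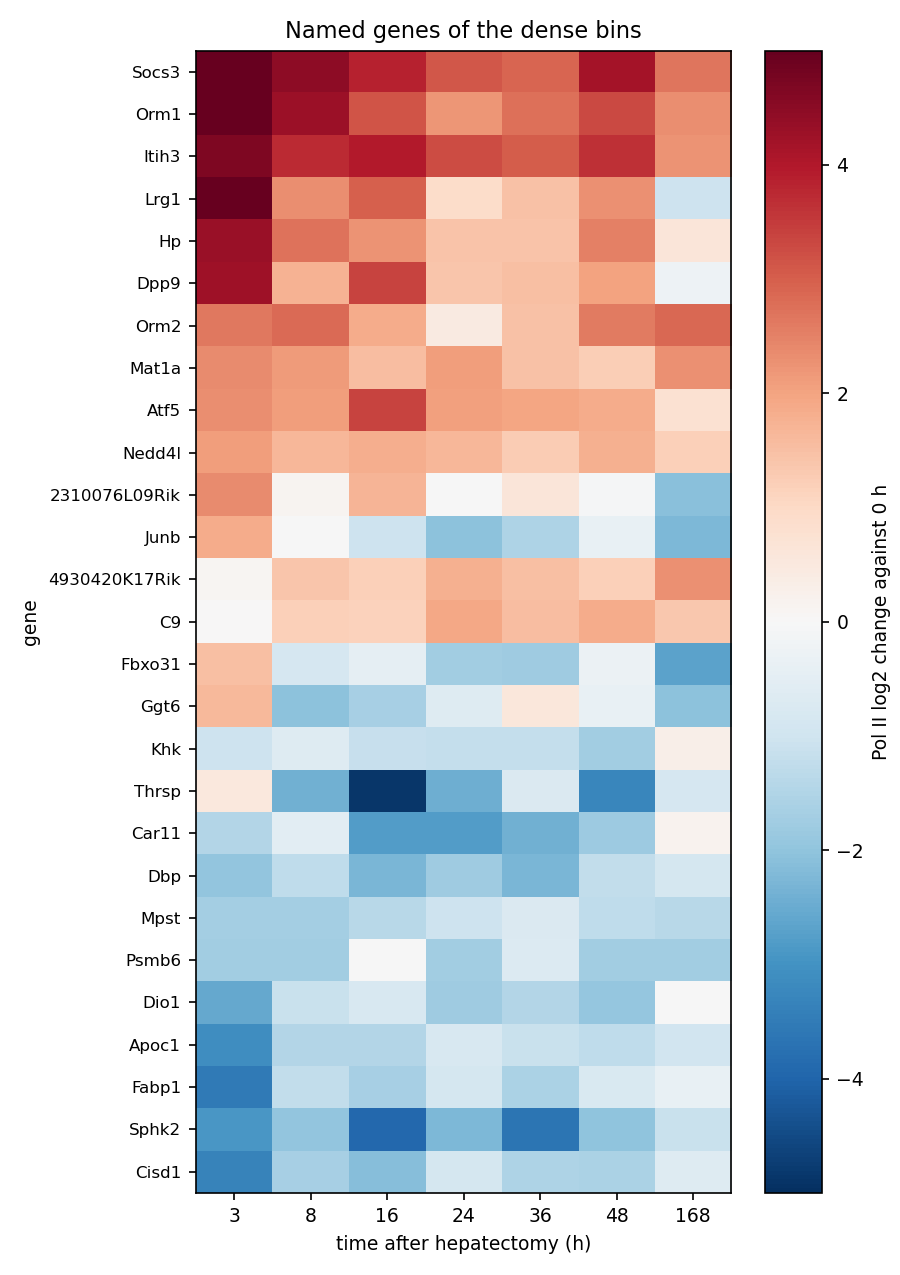
Log2 change of Pol II against 0 h (colour, red higher and blue lower, scale from -5 to 5) at 7 times for 27 dense-bin genes among those with the largest changes in the 4 windows, ordered by the mean of 3 and 8 h. Socs3, Orm1 and Itih3 are red in every column and Sphk2 is blue in every column.

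The other gene lists had few members in dense bins by number, with no test between lists. No list had more than 49 measured genes, so 1 member alone puts a list above 0.53% of all measured and 1.95% of all tested genes. Being above these shares therefore says nothing about a list with 1 member. Among these lists with at least 1 member the shares ran from 2.04% (drug metabolism, 1 of 49) to 16.7% (C/EBP family, 1 of 6). Of 22 lists with 542 measured genes, 26 genes met a dense bin, and 85 of the 111 dense-bin genes were in no list. Apolipoprotein and lipid transport genes had 3 of 28 or 10.7% (Abca1, Apoc1 and Fabp1). Complement had 2 of 21 or 9.52% (C9 and Masp1), and fatty acid and cholesterol metabolism 2 of 48 or 4.17% (Acsl1 and Dgat2). Abca1, which exports cholesterol from cells, had log2 changes of 1.51 at 3 h and 0.98 at 8 h. Liver transcription factors had 2 of 39, Bcl6 and Nfib, and Bcl6, a transcriptional repressor, had -0.95 at 3 h and -1.14 at 8 h. The C/EBP family had 1 of 6, Ddit3, a stress-induced member that lacks normal DNA binding, with 1.66 at 16 h. Plasma protein and coagulation genes had 0 of 42 and mitosis genes 0 of 30, although 37 of those 42 met a bin with 1 to 3 sites. The single members of other lists were Cdk4 for replication (1 of 34), Mat1a for amino acids (1 of 38) and Akr1d1 for bile acids (1 of 18). Sult1a1 was the 1 of 49 for drug metabolism, Khk the 1 of 23 for glucose and Igfbp4 the 1 of 36 for growth signalling. Cdk4, the cyclin D kinase of G1, stayed within 0.50 of its 0 h level on the log2 scale at all 7 later times. Akr1d1, the bile acid 5-beta-reductase, met a bin with 3 Egr1 peaks and had at most 1.05 units per bp.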

How the data were processed

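ChIP-seq libraries for C/EBPalpha and C/EBPbeta (8 each), Pol II (8) and Egr1 (1) were used; the mock sample was not analysed here. Samples were grouped by antibody and time in their titles. Bowtie 0.12.7, MACS 1.4.1 and build mm9 are named per the submitters' processing notes, with no role. The authors deposited a score per region or peak, used only to describe or filter within a list, and, for Pol II, a signed score per gene with no read counts, so depth and counting error are unknown. Library batches are unknown.

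Pol II rows were moved back 500 bp by strand for gene starts, divided by measured width (at least 500 bp) and rescaled by the median of ratios. This moved changes against 0 h by 0.26, 0.33, -0.32, 0.41, -0.01, 0.33 and 0.97 (log2) from 3 to 168 h. Negative values became 0, and log2 was taken after adding 0.5. Genes above 0.5 in at least 2 libraries were fitted with limma 3.58.1 in R 4.3.3, using a natural spline of time rank (3 degrees of freedom). P-values were adjusted by Benjamini-Hochberg, and the step was tested on simulated data. Other steps used Python 3.11.15. Of 111 names, 100 were current symbols, 8 were older names and 3 did not match the RefSeq gene table.

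The members, gene lists and windows were chosen with earlier results of these data known. Named genes are those of the 15 bins with most sites, the 10 largest changes each way in the early window and 5 each way in the others, and list members; other genes were named after their values were seen, and some genes the rule names are not reported here. Alternatives were other chaining distances, list minimums, bin origins, equal list lengths, rescaling, pseudocount, filter, start in the bin, each library left out, and Egr1 peak rules.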

Additional observations from a re-analysis of the deposited data

How the results depend on the processing

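The number of dense bins was 145 as reported, 107 with chaining at 50 bp, 167 at 200 bp and 147 with bins shifted by 5 kb. It was 38 when sites had to be in 12 or more lists and 59 when each list was shortened to its 20061 top-scoring regions. The trend test called 0 dense-bin genes under each alternative, also with each library left out in turn (0 to 0), and the count at an unadjusted p under 0.05 ran from 4 (without 16 h) to 30 (without 0 h, 32.3% beside 19.9% of all). With a pseudocount of 2 fewer genes passed in dense bins and over all: early higher 9 (9.68%, beside 2.23% of all) and lower 6 (6.45%, beside 2.63%), middle 6 (6.45%, beside 1.62%) and 5 (5.38%, beside 2.33%), late 7 (7.53%, beside 2.16%) and 4 (4.3%, beside 2.42%), and final 9 (9.68%, beside 2.58%) and 6 (6.45%, beside 6.07%). With no rescaling, early lower genes numbered 16, and at 168 h 8 were higher and 30 lower (33%, beside 35.2% of all). Of the 67 tested genes with the start in a dense bin, 11 were higher at 168 h (16.4%, beside 18.3% of the 93). With the 8 h library alone, chosen after seeing the data, 20 genes were higher early and 14 lower. The 4949 higher-scoring Egr1 peaks met 34.5% of dense bins and 13.4% of bins with 1 to 3 sites. The cause of these moves was not tested. No paired analysis was possible because each factor and time had 1 library. The single 0 h library sets every change, and unknown depth limits how low levels can be read.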
